A study of Mus musculus with 405 samples.

Results

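The genes described here are 10 genes that mark microglia: the receptors Cx3cr1, Csf1r, Trem2 and Tlr13, the adaptors Tyrobp and Fcer1g, the complement subunits C1qa, C1qb and C1qc, and the protease Ctss. They were taken by symbol, not by any measured value. All 10 were listed among the 23893 genes of a table of raw counts for pyraclostrobin, and 6 of them (Cx3cr1, Csf1r, Tlr13, C1qa, C1qb and C1qc) among the 13304 genes of a screening table. Cortical cells of mouse embryos at day 15, from C57BL/6J dams and CAST/EiJ sires, were grown to day 7 in vitro, and each culture then received 1 chemical or vehicle (dimethyl sulphoxide) over 24 h. The authors had treated the cultures with an inhibitor of mitosis before exposure. Polyadenylated RNA was sequenced from each culture. The screen held 49 vehicle libraries and 344 libraries of 297 chemicals, with 1 library for 282 of them and 32 for topotecan at 0.3 μM. The count table held 4 libraries of pyraclostrobin at 0.1 μM and 4 of vehicle. The labels do not say whether libraries of a group came from separate litters, so p-values measure only the spread between these libraries. For fenamidone or pyraclostrobin, a figure legend of the study gives fewer biological replicates than 4 and calls the vehicle controls matched. The 4 libraries of a group in the count table may therefore not all be independent.

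Microglia are the resident macrophages of the brain, and most arise from yolk sac precursors that enter it during embryonic life. They live on signals through Csf1r, the receptor for Csf1 and Il34, and sense neurons through Cx3cr1, the receptor for the neuronal chemokine fractalkine. Trem2 binds lipids and lipoproteins and signals through Tyrobp, whereas Fcer1g carries the signals of activating Fc receptors. C1qa, C1qb and C1qc form the recognition part of the first complement component, which tags synapses and debris for removal. These genes are shared with macrophages at the borders of the brain, so none of them marks microglia alone.

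By the mm9 annotation, the 3 C1q genes are neighbours on chromosome 4, with C1qb at 136436044 to 136442102, C1qc at 136445719 to 136448980 and C1qa at 136451832 to 136454718, all on the reverse strand. Cx3cr1 lies on chromosome 9 at 119957811 to 119977400, Trem2 on chromosome 17 at 48485726 to 48493472 and Tlr13 on chromosome X at 103338543 to 103355832. Tyrobp lies on chromosome 7 at 31198807 to 31202596, Fcer1g on chromosome 1 at 173159703 to 173164496 and Ctss on chromosome 3 at 95330708 to 95360325. These are the spans of whole genes, and reads were counted over their exons.

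Sequences upstream of the start site were held for 7 of the 10 genes in a RefSeq table of the GRCm38.p6 build (C1qb, C1qc, Cx3cr1, Ctss, Fcer1g, Tlr13 and Trem2). They were searched on both strands for GAGGAA, the purine-rich core bound by PU.1, the myeloid transcription factor encoded by Spi1. The core was found in the 250 bases before the start of 5 of the 7 genes, and in 23.3% of all 32851 promoters of that length. The longer form GAGGAAGT was found in C1qc of the 7, and in 2.44% of all promoters. The sequences of the 6 of these genes that rose with pyraclostrobin are shown 5′ to 3′ on the strand of the gene, with or without the core, and capitals mark the core (TTCCTC is the core read on the other strand). The core began at base -30 in C1qb, -193 in C1qc, -40 in Trem2, -83 in Tlr13 and -164 in Ctss, counted back from the start site, and it was not in these windows of Cx3cr1 and Fcer1g. A match is a run of letters and not a measured site of binding.
C1qb, chr4:136886201-136886450, reverse strand: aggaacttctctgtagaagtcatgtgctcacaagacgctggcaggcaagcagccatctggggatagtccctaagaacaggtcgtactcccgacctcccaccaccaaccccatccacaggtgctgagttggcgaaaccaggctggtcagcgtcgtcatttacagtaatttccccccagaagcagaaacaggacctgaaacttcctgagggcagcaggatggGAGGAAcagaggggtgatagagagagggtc
C1qc, chr4:136892915-136893164, reverse strand: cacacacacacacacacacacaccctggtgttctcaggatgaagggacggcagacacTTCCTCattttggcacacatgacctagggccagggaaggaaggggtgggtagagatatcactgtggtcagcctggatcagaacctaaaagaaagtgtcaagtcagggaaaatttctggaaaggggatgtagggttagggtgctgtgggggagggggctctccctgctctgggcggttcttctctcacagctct
Trem2, chr17:48346151-48346400, forward strand: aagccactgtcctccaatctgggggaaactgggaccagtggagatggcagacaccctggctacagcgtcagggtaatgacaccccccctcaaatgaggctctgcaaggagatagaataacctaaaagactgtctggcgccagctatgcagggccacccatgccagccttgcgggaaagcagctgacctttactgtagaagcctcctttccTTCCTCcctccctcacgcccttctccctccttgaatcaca
Tlr13, chrX:106143025-106143274, forward strand: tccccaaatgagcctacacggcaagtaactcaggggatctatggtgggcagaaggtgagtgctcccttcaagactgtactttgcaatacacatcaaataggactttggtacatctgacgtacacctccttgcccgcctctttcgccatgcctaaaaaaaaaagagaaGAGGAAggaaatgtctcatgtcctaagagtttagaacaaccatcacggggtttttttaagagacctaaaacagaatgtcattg
Ctss, chr3:95526536-95526785, forward strand: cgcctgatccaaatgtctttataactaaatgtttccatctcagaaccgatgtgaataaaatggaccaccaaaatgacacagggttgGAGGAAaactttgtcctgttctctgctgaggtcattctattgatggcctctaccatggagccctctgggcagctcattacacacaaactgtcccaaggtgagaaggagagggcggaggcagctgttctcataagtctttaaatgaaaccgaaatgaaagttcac
Cx3cr1, chr9:120068297-120068546, reverse strand: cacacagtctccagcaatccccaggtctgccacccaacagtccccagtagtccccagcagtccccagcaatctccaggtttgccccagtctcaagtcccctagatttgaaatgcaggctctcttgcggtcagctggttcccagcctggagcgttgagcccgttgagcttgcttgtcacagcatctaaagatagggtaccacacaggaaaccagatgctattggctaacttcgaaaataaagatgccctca

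The cultures are labelled as cortical neurons, and a list of 10 neuron markers summed to between 10668 and 11454 CPM (counts scaled to a common library total) in the 4 vehicle libraries of the count table. The 10 microglia genes summed to between 31.02 and 44.9 CPM. Library totals were 2409623 to 2550437 counts with pyraclostrobin and 2778615 to 7833440 with vehicle, so that a few CPM correspond to a handful of reads and the error of counting is large. The libraries of replicate 1, 1 in each group, stood apart from the others (r of 0.936 to 0.955 with the rest of their groups, against 0.971 to 0.990 among the rest), and counts of calls are also given without both.

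On the RPKM scale (CPM after TMM scaling, per kilobase of transcript), complement genes were the most abundant of the 10 in vehicle cultures. C1qc was at 8.12 ± 1.63 RPKM, C1qa at 7.79 ± 1.82 and C1qb at 5.91 ± 1.06 (mean ± SD, n = 4), and the ranges of these 3 genes overlapped. The adaptors followed, with Fcer1g at 2.79 ± 0.687 RPKM and Tyrobp at 2.39 ± 0.468. Trem2 was at 1.90 ± 1.53 RPKM, within its spread of both adaptors, and Cx3cr1 at 1.43 ± 0.532, with a range that overlapped those of Tyrobp and Trem2. The lowest levels were those of Ctss (0.784 ± 0.703 RPKM), Csf1r (0.651 ± 0.208) and Tlr13 (0.341 ± 0.0758). Every vehicle library had each C1q gene at 4.36 RPKM or more and every other gene at 4.18 or less.

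To ask how the 10 genes responded to a fungicide that blocks mitochondrial complex III at the quinone outside (Qo) site, the 4 pyraclostrobin libraries were compared with the 4 vehicle libraries. The 10 genes together had 281, 404, 523 and 370 counts with pyraclostrobin and 130, 102, 243 and 243 with vehicle, in the order of replicates 1 to 4, which is kept below. This is 117, 158, 210 and 152 CPM against 44.9, 36.7, 31.02 and 34.3 CPM, so the sums did not overlap. Of the 10 genes, 9 passed edgeR's quasi-likelihood test at an adjusted p under 0.05 (Benjamini-Hochberg over 13441 genes), all of them higher with pyraclostrobin, where 18.2% of all genes tested were called higher and 33.9% were called in either direction. After scaling by TMM, which corrects library totals for differences in composition, CPM did not overlap between the groups for any of the 10 genes, and 15.7% of all genes tested lay wholly higher and 19.7% wholly lower in this way. The median log2 fold change was 2.03 over the 10 genes and -0.01 over all genes tested. Each of the 10 genes had a mean of at least 5 counts in the vehicle libraries alone, so none was tested only because of its level with pyraclostrobin. These are bulk cultures, in which a change in the number of microglia, in their RNA per cell or in the RNA of other cells cannot be told apart. The study counted cells stained for neuron, astrocyte and microglia proteins after fenamidone and reported no significant change. Such counts were not given for pyraclostrobin.

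**Figure D1:**
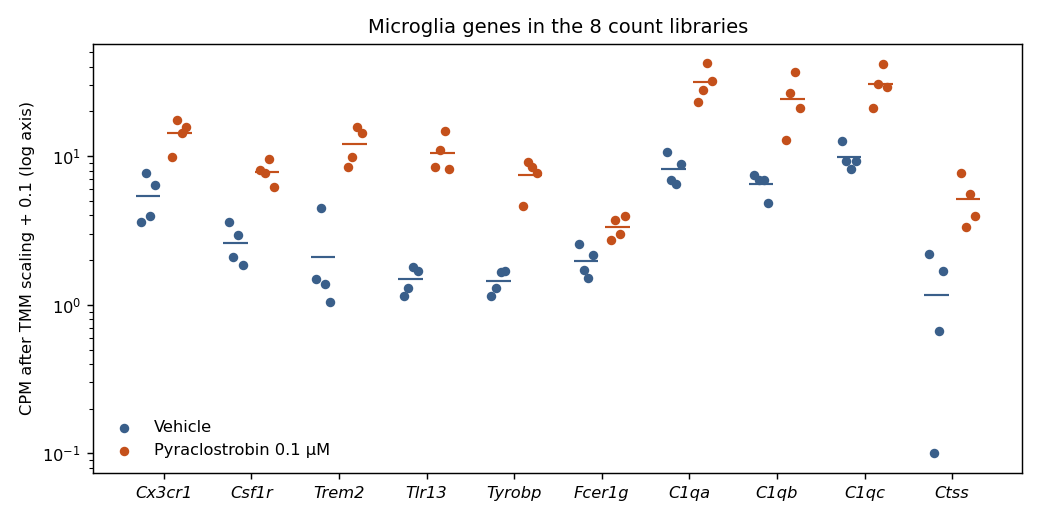
CPM after TMM scaling, plus 0.1, on a log axis for the 10 microglia genes in the 4 vehicle (blue) and 4 pyraclostrobin (orange) libraries; points are libraries and lines are means. The groups do not overlap for any gene, the gap is narrowest for Fcer1g, and the vehicle library without a read of Ctss lies at 0.1.

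Among the receptors, Tlr13, an endosomal sensor of bacterial ribosomal RNA, had 22, 30, 40 and 21 counts with pyraclostrobin against 3, 3, 12 and 10 with vehicle. Its log2 fold change was 2.91 (SE 0.311, adjusted p = 7.82e-05). Trem2 had 22, 27, 43 and 37 counts against 4, 11, 9 and 6. Like those of Tlr13, C1qa and Tyrobp, its counts did not overlap even before scaling. Trem2 rose by 2.86 (SE 0.437, adjusted p = 6.05e-04), which differs from Tlr13 by less than the SE. Csf1r had 21, 21, 26 and 16 counts against 10, 5, 20 and 11, and rose by 1.72 on the log2 scale (SE 0.306, adjusted p = 0.00141). Cx3cr1 had 26, 48, 39 and 41 counts against 10, 19, 27 and 40. Its raw counts overlapped in the deeper vehicle libraries, and after scaling its level was 14.3 ± 3.24 CPM against 5.32 ± 1.98 (SD, n = 4), a log2 fold change of 1.53 (SE 0.290, adjusted p = 0.00207).

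Of the adaptors, Tyrobp passed the test and Fcer1g did not. Tyrobp had 12, 25, 23 and 20 counts with pyraclostrobin against 3, 3, 11 and 10 with vehicle, a log2 fold change of 2.46 (SE 0.323, adjusted p = 2.52e-04). Fcer1g had 7, 10, 8 and 10 counts against 7, 4, 10 and 13, or 3.25 ± 0.563 CPM against 1.88 ± 0.463 after scaling. It did not pass the test, with a log2 fold change of 0.89 (SE 0.336, adjusted p = 0.0602), and passed it without vehicle replicate 1 (1.03, adjusted p = 0.0302). The log2 ratio of Tyrobp to Fcer1g within each library, after 0.5 was added to each count, was 0.74, 1.28, 1.47 and 0.97 with pyraclostrobin and -1.10, -0.36, 0.13 and -0.36 with vehicle. The difference of 1.54 gave p = 0.0286 in a two-sided exact permutation test, the smallest that 4 libraries against 4 allow, and 0.143 after adjustment over the 5 ratios examined, so it failed the correction.

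The complement genes all rose. C1qa had 61, 77, 115 and 84 counts with pyraclostrobin against 30, 17, 45 and 55 with vehicle, and went from 8.10 ± 1.89 to 31.2 ± 8.03 CPM (SD, n = 4). C1qb had 34, 73, 100 and 55 counts against 21, 17, 48 and 30, and C1qc had 56, 84, 114 and 76 against 36, 23, 57 and 58. No treated library overlapped vehicle for these genes after scaling, and treated replicate 1 was the lowest for each. Log2 fold changes were 2.04 for C1qa (SE 0.247, adjusted p = 1.58e-04), 2.02 for C1qb (SE 0.314, adjusted p = 6.61e-04) and 1.75 for C1qc (SE 0.245, adjusted p = 3.56e-04). The log2 ratios between the 3 genes moved by 0.11 (C1qa to C1qb), 0.31 (C1qa to C1qc) and 0.20 (C1qb to C1qc), with exact two-sided permutation p of 0.657, 0.0571 and 0.257, and none passed after adjustment over the 5 ratios. The ratio of Trem2 to its partner Tyrobp moved by 0.40 (exact permutation p = 0.514), with a vehicle spread of 1.05 (SD, n = 4).

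Ctss, a lysosomal cysteine protease that microglia also secrete, had few reads in either group. It had 20, 9, 15 and 10 counts with pyraclostrobin and 6, 0, 4 and 10 with vehicle, where 1 library held no read. Its level was 5.03 ± 1.92 CPM against 1.06 ± 0.952 (SD, n = 4), and its log2 fold change of 2.28 had the largest SE of the 10 genes (0.560, adjusted p = 0.00897). Without both libraries of replicate 1, all 10 genes were called higher, Fcer1g included (log2 fold change 1.12, adjusted p = 0.0272), and the median log2 fold change of the 10 was 2.32. In that comparison 24.6% of 13511 genes were called higher.

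Other genes that mark microglia were examined as a list of 34. Only those with a mean of at least 5 counts were tested, and of these 21 genes 18 rose, none fell and 3 did not pass, with a median log2 fold change of 1.77. Of these, 3 (Itgb2, Apbb1ip and Selplg) reached that mean only through the treated libraries, and 15 of the other 18 rose. Itgb2, the shared chain of the leukocyte integrins, rose most (log2 fold change 3.53, SE 0.712, adjusted p = 0.00302), from 0 to 3 counts in vehicle libraries to 4 to 13. Cd68, a protein of macrophage lysosomes, rose by 2.95 (SE 0.220, adjusted p = 9.16e-06), and Cd53, a tetraspanin of blood cells, by 2.16 (SE 0.542, adjusted p = 0.00998). Several defining genes of mature microglia were too low to test. P2ry12 had 1, 1, 0 and 4 counts with pyraclostrobin and 0, 0, 0 and 4 with vehicle, Tmem119 had 4, 7, 6 and 6 against 3, 1, 2 and 5, and Siglech had no read in any library. Aif1, which encodes Iba1, had 3, 4, 0 and 2 counts against 1, 1, 1 and 0. Without both libraries of replicate 1, 17 of 21 genes of the list rose.

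**Figure D2:**
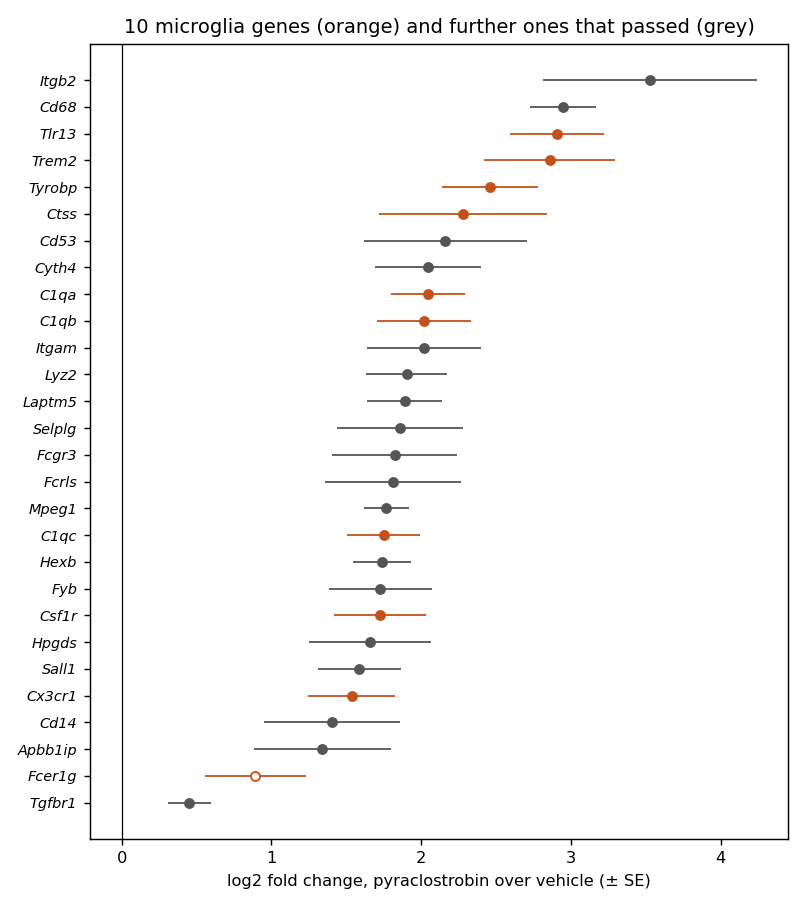
Log2 fold change of pyraclostrobin over vehicle, with its SE, for the 10 microglia genes (orange) and the 18 of 21 further microglia genes tested that passed (grey), in order of size; filled points passed edgeR's test at an adjusted p under 0.05. The 3 further genes that did not pass are not drawn, every gene drawn lies above 0, and of these Fcer1g alone did not pass.

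The partners of the 10 genes were followed in lists that overlap one another. In the Csf1r pathway, with its ligands and the myeloid transcription factors, 7 of 9 genes tested rose and 1 fell. The ligand Csf1 rose from 75 to 184 counts in vehicle libraries to 524 to 918 (log2 fold change 3.33, SE 0.240, adjusted p = 7.41e-06), whereas the other ligand Il34 did not pass (1.01, adjusted p = 0.0663). Runx1 and Cebpa, transcription factors of myeloid cells, rose by 1.97 and 1.69 (adjusted p = 0.00904 and 0.00241). Mef2c, a transcription factor of microglia that is also abundant in neurons, fell by 0.42 (adjusted p = 0.0251). Spi1, which encodes PU.1, was too low to test, with 7, 9, 6 and 2 counts against 1, 2, 1 and 6.

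Of the fractalkine genes, Cx3cr1 and the shedding protease Adam17 (1.29, adjusted p = 0.00233) rose. The ligand Cx3cl1, made by neurons, had a log2 fold change of -0.17 (adjusted p = 0.280). In the list around Trem2, Tyrobp and the Fc receptors, 5 of 11 genes tested rose, namely Trem2, Tyrobp, the receptors Fcgr1 (1.97, adjusted p = 0.0206) and Fcgr3 (1.82, adjusted p = 0.00614), which signal through Fcer1g, and the kinase Syk (1.39, adjusted p = 0.00207), which acts downstream of both adaptors. Fcgr1 reached a mean of 5 counts only through the treated libraries, and 4 of the other 10 genes rose. Of those that did not pass, Sirpa was at 0.05 (adjusted p = 0.798) and Cd47, its ligand, at -0.74 (adjusted p = 0.0606). Without both libraries of replicate 1, 6 of 10 genes of the Trem2 list rose and 1 fell, and 2 of 4 fractalkine genes rose and 1 fell.

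Complement genes rose in 9 of 11 tested, the 3 C1q genes included. C3, the central complement protein, had 23 to 66 counts with pyraclostrobin and 4 to 11 with vehicle (log2 fold change 3.26, SE 0.398, adjusted p = 1.68e-04). The receptors C5ar1, whose vehicle mean was under 5 counts, and C3ar1 rose by 2.54 and 2.21 (adjusted p = 8.34e-04 and 1.09e-04). Of toll-like receptors and their adaptors, 10 of 11 tested rose, led by Tlr2 (3.28, adjusted p = 1.55e-04), a sensor of lipoproteins, Tlr4 (2.92, adjusted p = 7.18e-04), a sensor of endotoxin, Tlr13 and Tlr3 (2.51, adjusted p = 7.52e-04), a sensor of double-stranded RNA. Tlr2 and Tlr4 reached a mean of 5 counts only through the treated libraries (Tlr4 had 0 to 6 counts with vehicle), and 8 of the other 9 genes rose.

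Cathepsins and other lysosomal genes rose in 12 of 14 tested. Ctsz and Lamp2 rose by 2.07 and 1.80 (adjusted p = 3.25e-04 and 3.67e-04), and both are expressed by many cell types besides microglia. Genes of activated or lipid-handling microglia rose in 10 of 13 tested, with Lgals3 (3.97, adjusted p = 1.05e-04), Clec7a (3.35, adjusted p = 4.79e-05) and Gpnmb (3.33, adjusted p = 1.98e-06) at the top. Lpl (0.10, adjusted p = 0.794) and Igf1 (-0.09, adjusted p = 0.888) of that list did not pass. Of a list of inflammatory genes (cytokines, chemokines and enzymes), 4 of 13 could be tested and 3 rose. These were the chemokine genes Ccl2 and Cxcl10 and the cyclooxygenase gene Ptgs2 (2.28, 1.71 and 1.29, adjusted p = 0.00327, 0.0161 and 0.00438). Tnf had 1 to 4 counts and Il1b and Il6 had 0 or 1 in every library. Without both libraries of replicate 1, 14 of 14 lysosomal genes, 12 of 13 genes of activated microglia and 5 of 5 inflammatory genes tested rose.

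Markers of other cells moved in the same libraries. The 8 mural cell and fibroblast markers summed to between 1234 and 1723 CPM with pyraclostrobin and between 85.7 and 199 with vehicle, and 6 of 7 tested rose, led by the contractile genes Acta2 (3.98, adjusted p = 1.16e-05) and Tagln (3.56, adjusted p = 2.76e-06) and the collagen gene Col1a1 (2.84, adjusted p = 5.92e-05). Lum reached a mean of 5 counts only through the treated libraries, and 5 of the other 6 rose. Astrocyte markers rose in 5 of 8 tested, with Aldh1l1 at 2.26, Gja1 at 2.21 and Aqp4 at 1.95 (adjusted p = 0.0224, 0.00186 and 0.0255), and their sums overlapped (1163 to 3933 against 683 to 1227 CPM). Neuron markers fell in 9 of 10, with Slc17a7 at -1.59, Syt1 at -1.47 and Tubb3 at -1.40 (adjusted p = 6.84e-05, 2.42e-04 and 1.17e-05), and their sums were 5222 to 6580 against 10668 to 11454 CPM. Border and perivascular macrophage markers summed to 19.3 to 39.4 CPM against 3.96 to 6.57. Stab1 (2.34, adjusted p = 1.88e-04) and Mrc1 (2.13, adjusted p = 0.0147) were the 2 of 9 that could be tested and both rose, Mrc1 having reached a mean of 5 counts only through the treated libraries, whereas Cd163 and Clec10a had no read in any library. Of 10 markers of other blood cells, 5 had no read, among them S100a8 and S100a9 of neutrophils and Cd3e of T cells, and the sums overlapped. Oligodendrocyte lineage markers summed to 203 to 329 CPM against 99.3 to 197, which did not overlap. Of 6 tested, the progenitor genes Cspg4 (2.07), Olig2 (1.49) and Olig1 (0.97) rose (adjusted p = 2.80e-05, 0.00204 and 0.0484) and the myelin gene Mog fell by 0.98 (adjusted p = 0.00764). Endothelial markers summed to 16.5 to 24.9 CPM against 4.72 to 9.68, but most of these counts were those of Kdr. It had 51, 35, 36 and 52 counts with pyraclostrobin against 25, 16, 29 and 32 with vehicle. Kdr was the only one tested and rose by 1.55 (adjusted p = 0.00194). The other endothelial markers were too low to test, with 0 to 6 counts in every library, and Cldn5 had no read. Without both libraries of replicate 1, 10 of 10 neuron markers fell, 6 of 8 astrocyte markers rose and 1 fell, and 6 of 8 mural cell and fibroblast markers rose. The part of these other cells in the values of the 10 genes was not tested.

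In the screen, values are deviations of log10 RPKM from the median of each gene, converted here to log2, so they give no levels. Among vehicle libraries the SD of the 6 genes lay between 0.486 (Cx3cr1) and 0.850 (Csf1r) on the log2 scale, against a median of 0.254 over all genes. The SD of Csf1r was larger than that of 97.3% of all genes and the SD of Cx3cr1 larger than that of 81.7%. Vehicle values of Cx3cr1 ran from -1.30 to 1.18 with a median of 0.26, and those of Csf1r from -2.55 to 1.15 with a median of 0.09. C1qa ran from -1.39 to 1.46 and C1qb from -1.37 to 1.60. C1qc ran from -1.43 to 1.14 and Tlr13 from -1.36 to 1.78. A single library of a chemical therefore had to lie far out to leave the range of vehicle. Over 297 chemicals, 1.68% lay above every vehicle library for Cx3cr1, 2.69% for Csf1r, 0.337% for C1qa, 0.673% for C1qb, 4.38% for C1qc and none for Tlr13, against a median over all genes of 1.35%. Values below every vehicle library were found for 4.71% of chemicals for C1qb, 3.37% for C1qc 3.03% for C1qa, 2.36% for Tlr13, 2.02% for Cx3cr1 and none for Csf1r, against a median of 1.68%.

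**Figure D3:**
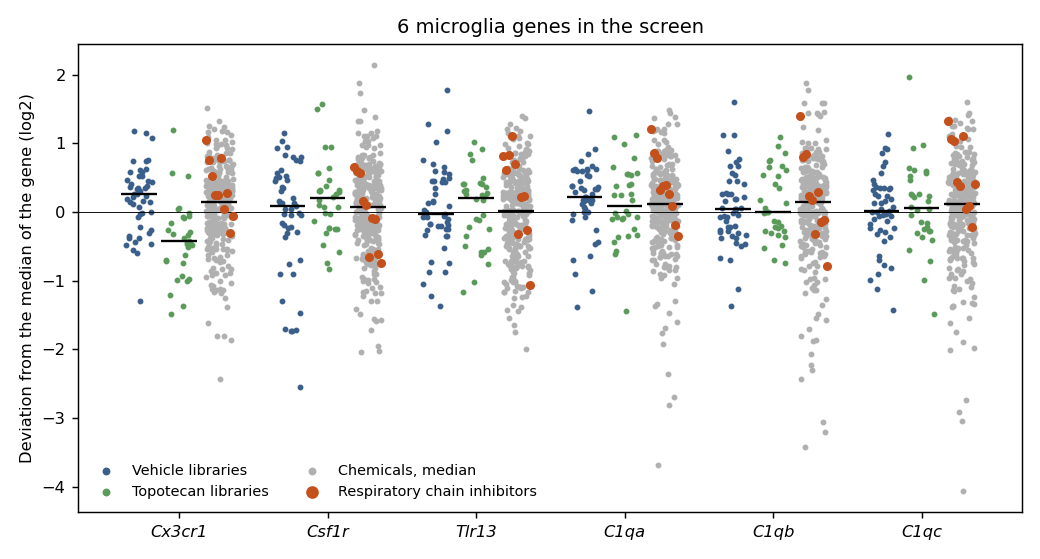
Deviation from the median of the gene, in log2 units, for the 6 microglia genes of the screen. Points are the 49 vehicle libraries (blue), the 32 topotecan libraries (green) and the medians of 297 chemicals (grey), with medians as black lines. Orange points are the 10 inhibitors of complex I or of complex III at the Qo site that were compared as a group. The median of topotecan for Cx3cr1, at -0.43, lies below that of vehicle at 0.26, and the orange points lie within the spread of the other chemicals.

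The 6 genes varied with each other only weakly. Over the 49 vehicle libraries the 15 pairs had Pearson correlations of -0.13 to 0.18 with a median of 0.07, and over 297 chemicals -0.04 to 0.29 with a median of 0.13. The 3 highest values over chemicals were those among C1qa, C1qb and C1qc, from 0.276 to 0.288. All libraries passed through the same normalization, and most chemicals rest on 1 library. The genes outside the list that followed the mean of the 6 most closely over vehicle libraries were Gpx1 (r = 0.594), Myo1h, Prdx6b, Carhsp1, Apoe, Hs6st1, Ctnnb1, Laptm4a, Inip and Lyz2 (r = 0.533), where the 95th percentile of all genes was 0.303. Only 2 of these 10, Lyz2 and Apoe, were also among the first 10 over chemicals, where Lyz2 led with r = 0.545 and was followed by Pea15a, Laptm5 and Apoe. Lyz2 encodes the lysozyme of macrophages, Laptm5 a lysosomal protein of blood cells and microglia, and Apoe a lipid carrier of astrocytes and microglia.

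To ask whether inhibitors of complexes I and III of the respiratory chain moved the 6 genes as a group, 10 chemicals were compared with the other 287. The 10 were 4 complex I inhibitors and 6 Qo inhibitors of complex III, and only these are called respiratory chain inhibitors here. They may not be all inhibitors of complexes I and III in the screen. Inhibitors of complex II, such as carboxin, were among the other chemicals, so the result does not cover the whole class. None of the 6 genes passed limma's test (Benjamini-Hochberg over 13304 genes), where 26.2% of all genes did (9.77% higher), and at an unadjusted p under 0.05 only C1qc did. C1qc was higher by 0.57 (SE 0.239, p = 0.0177, adjusted p = 0.0639), and it passed without pyridaben (adjusted p = 0.0390), azoxystrobin (0.0488) or fluoxastrobin (0.0494). Differences for the others were 0.34 for Tlr13 (SE 0.205, adjusted p = 0.243), 0.33 for C1qa (SE 0.215, adjusted p = 0.275), 0.30 for Cx3cr1 (SE 0.192, adjusted p = 0.279), 0.20 for C1qb (SE 0.243, adjusted p = 0.621) and -0.03 for Csf1r (SE 0.214, adjusted p = 0.943). With single libraries in place of medians, C1qc (0.65, adjusted p = 0.00667) and Cx3cr1 (0.42, adjusted p = 0.0402) were called, and against vehicle libraries C1qc was (0.66, adjusted p = 0.00131). In these settings, libraries of the same chemical counted as separate units. In the first, the reference also held the 32 topotecan libraries, in which Cx3cr1 was lower than in vehicle. In the comparison of medians the microglia genes Cd68 (0.56, adjusted p = 0.0264), Laptm5 (0.54, adjusted p = 0.0109) and Sall1 (0.38, adjusted p = 0.00256) were called higher. These were 3 of 14 measured genes of the longer microglia list. Whether their differences exceeded those of the 6 genes was not tested.

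The 10 inhibitors were spread widely. Ranked by the mean of the 6 genes among 297 chemicals, fenamidone (10 μM) was at 2, fenpyroximate (0.1 μM) at 4 and famoxadone (10 μM) at 5, each with all 6 genes above the median of vehicle. Trifloxystrobin (10 μM) was at 36 and pyraclostrobin (0.1 μM) at 57, each with 5 of 6 genes above it. Rotenone (0.01 μM) was at 109, fluoxastrobin (1 μM) at 122 and azoxystrobin (0.1 μM) at 143. Pyridaben (0.1 μM) was at 252 with no gene above the median of vehicle, and tebufenpyrad (0.01 μM) at 264 with 1. Doses differed between them, so the values are set side by side without comparison. Of these inhibitors, the 3 that reached the first 5 had mean values of 1.08, 0.78 and 0.76, above the highest vehicle library at 0.57.

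Inhibitors with 2 libraries showed how far single libraries varied. The 2 fenamidone libraries had means of 0.48 and 1.67, and the second had C1qb at 2.16, C1qc at 2.04, C1qa at 1.94 and Cx3cr1 at 1.82, whereas the first had these genes at 0.62, 0.62, 0.49 and 0.29. Those of famoxadone were close, at 0.68 and 0.85, with every gene between 0.31 and 1.17. In rotenone, C1qc was at 1.08 and 1.12, but C1qb was at 0.41 and -1.06 and Csf1r at -0.53 and -0.78. In azoxystrobin C1qb was at 1.10 and -1.41. The single pyraclostrobin library of the screen is replicate 1 of the count table. It had Tlr13 at 0.69, above 43 of 49 vehicle libraries, C1qc at 0.38, above 40, C1qa at 0.38, above 33, C1qb at 0.17, above 29, Csf1r at 0.10, above 25, and Cx3cr1 at 0.25, above 24. It thus lay inside the range of vehicle for all 6 genes, on a scale from which effects of batch had been removed by the authors and with other vehicle libraries as reference than in the count table.

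**Figure D4:**
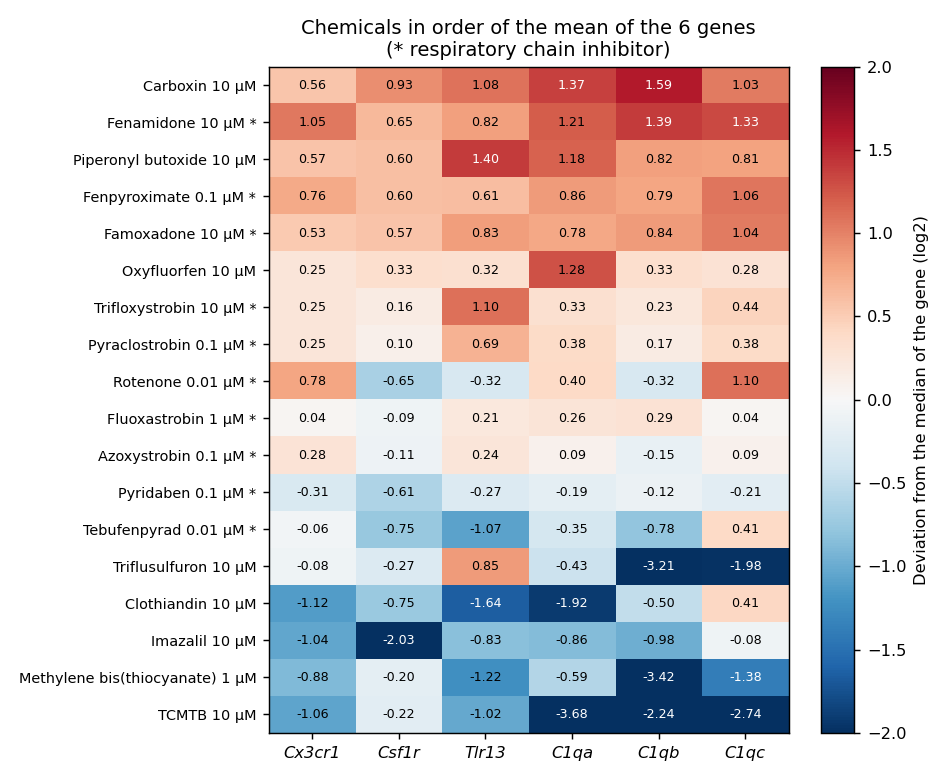
Deviation from the median of the gene, in log2 units, for the 6 microglia genes (columns) in 18 chemicals (rows, with dose). Rows are the 5 chemicals with the highest and the 5 with the lowest mean of the 6 genes, and all of cluster 2. Also drawn are the 10 inhibitors of complex I or of complex III at the Qo site that were compared as a group (*). Carboxin, an inhibitor of complex II, bears no star. Colours end at -2 and 2. All 6 genes are above 0 in fenamidone, fenpyroximate, famoxadone, trifloxystrobin, pyraclostrobin, oxyfluorfen, carboxin and piperonyl butoxide. All 6 are below 0 in pyridaben, imazalil, methylene bis(thiocyanate) and TCMTB.

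Cluster 2 of the study held 8 chemicals, 7 of these inhibitors and the herbicide oxyfluorfen. Because clusters were drawn from the same values, a test of their genes is not independent evidence. C1qc was higher by 0.68 (SE 0.266, adjusted p = 0.0366) and C1qa by 0.59 (SE 0.238, adjusted p = 0.0430) than in 289 other chemicals, where limma's test called 32.6% of all genes, 12.5% higher and 20.1% lower. C1qb (0.38, adjusted p = 0.302) and Csf1r (0.13, adjusted p = 0.736) did not pass, nor did Cx3cr1 and Tlr13. Oxyfluorfen had C1qa at 1.28 and the other 5 genes between 0.25 and 0.33. Both calls rested on few chemicals. C1qc was lost without famoxadone (adjusted p = 0.0830), fenamidone (0.111), fenpyroximate (0.0906) or rotenone (0.0834), and C1qa without famoxadone (0.0783), fenamidone (0.126), oxyfluorfen (0.128), fenpyroximate (0.0910) or pyraclostrobin (0.0510). Tlr13 was called without pyridaben (adjusted p = 0.0326) or rotenone (0.0306). With single libraries in place of medians, Tlr13 (adjusted p = 0.0308) and Cx3cr1 (0.0195) were called. That setting counted libraries of the same chemical separately and held the topotecan libraries in its reference.

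In cluster 3 (5 chemicals) and cluster 4 (4 chemicals), none of the 6 genes was called, where limma's test called 3.93% of all genes in cluster 3 (2.31% higher and 1.62% lower) and 0.879% in cluster 4 (0.301% higher and 0.579% lower). The largest difference in cluster 3 was that of C1qb, -0.81 (SE 0.338, p = 0.0164, adjusted p = 0.176), with values from -3.42 to 0.05. It rested on methylene bis(thiocyanate) (1 μM), without which the difference was -0.15 (adjusted p = 0.906). Cx3cr1 had the smallest p in cluster 3, with a difference of -0.73 (SE 0.267, p = 0.00670, adjusted p = 0.106). It stayed between -0.95 and -0.61 over 10 alternatives. In cluster 4, the largest differences were those of Tlr13 (-0.59, SE 0.321, adjusted p = 0.367) and Csf1r (0.40, SE 0.335, adjusted p = 0.613). There C1qb differed by -0.36 (adjusted p = 0.698) and C1qa by -0.23 (adjusted p = 0.809). At an unadjusted p under 0.05, C1qb, Cx3cr1 and Tlr13 were lower in cluster 3 and no gene of the 6 was in cluster 4.

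Topotecan inhibits topoisomerase 1, an enzyme that relaxes DNA ahead of the polymerase, and was the only chemical with many libraries. Cx3cr1 fell by 0.60 on the log2 scale in the 32 topotecan libraries against the 49 vehicle libraries (SE 0.116, limma's adjusted p = 1.18e-05), and a two-sided permutation test with 100000 resamples gave p = 2e-05, the smallest it can give. Its values ran from -1.49 to 1.19 with a median of -0.43, and 29 of 32 libraries were below the median of vehicle at 0.26. Of the 6 genes only Cx3cr1 was called, where 45.8% of all genes were called and 20.9% were called lower. C1qa differed by -0.06 (SE 0.120), C1qb by 0.05 (SE 0.121), C1qc by 0.08 (SE 0.131) and Tlr13 by -0.01 (SE 0.135), with adjusted p from 0.656 to 0.948. Csf1r differed by 0.26 (SE 0.168, unadjusted p = 0.121). Whether the change in Cx3cr1 differed from those of the other 5 genes was not tested. The other topoisomerase 1 inhibitors had 1 library each. Camptothecin (0.3 μM) had Cx3cr1 at -0.42, with 6 of 49 vehicle libraries below it, and irinotecan (10 μM) had it at -0.31, with 9 below it. In the same libraries of topotecan, the astrocyte marker Gfap fell by 0.72 (adjusted p = 3.61e-11), and its part in the value of Cx3cr1 was not tested.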

How the data were processed

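The authors used TagDust to filter reads and TopHat for alignment to mm9 (versions not given in the sources used here), discarded ribosomal RNA reads and counted the rest over exons of RefSeq genes joined by symbol. For pyraclostrobin, raw counts were deposited without normalization. The deposited values of the screen are on a log10 scale. The authors made them from RPKM of genes longer than 500 bp that were above 0 in over 90% of samples, by quantile normalization, subtraction of the median of the gene and a mixed model that took out batches of culture and sequencing. Batch can no longer be examined there, and depth of the screen is unknown. Strand was not stated for the counting.

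Groups came from the sample labels, and cluster membership from the study. Vehicle columns of the count table name the group only. A count table of fenamidone with sulforaphane was not used here, because its 6 columns share 1 name. Counts were tested with edgeR 4.0.16 in R 4.3.3 (mean of at least 5 counts over the 8 libraries, TMM, quasi-likelihood test without a block, adjusted p under 0.05), and the screen with limma 3.58.1 on log2 values without a variance trend, each chemical as the median of its libraries. The SE is that of the fitted model. Both scripts were tested on simulated data. Ratios and topotecan were also tested by permutation (scipy 1.17.1), and the ratios were chosen after the counts were seen. Samples far from their group were sought in 28 sets of 4 by Dixon's ratio (0.829) on log2(CPM + 0.5) or the deposited values, and none was found. With 4 values only a large gap can exceed this ratio, and the libraries of replicate 1 stood apart by correlation. Alternatives were RLE, DESeq2 1.42.0, other filters, a threshold of 0.01, a block, single libraries, variably expressed genes and removal of each library or chemical. RPKM of the counts used the transcript with the longest coding part in the GENCODE annotation of mm9, so lengths can differ from those of the authors.

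The genes, lists and tests were chosen with earlier results of these data known. Named in the text are the 10 genes; in each list the genes called for pyraclostrobin, up to 3 in each direction by size; the 10 genes most like the 6; and, of the chemicals, the 5 highest and 5 lowest, the respiratory chain inhibitors and cluster 2. Other genes and chemicals named were chosen after their values were seen. Results of 1 gene of the lists are not reported here.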

Additional observations from a re-analysis of the deposited data

How the results depend on the processing

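For pyraclostrobin, 148 of 150 values of the 10 genes kept their direction and their side of the threshold over 15 alternatives, and the other 2 were Fcer1g, called without vehicle replicate 1 or both libraries of replicate 1 (an alternative added after seeing the data, with 6538 genes called in all). Log2 fold changes ranged from 1.37 (Cx3cr1, lowest) to 3.40 (Trem2, highest) among the other 9 genes. A threshold of 0.01 left 2737 genes called against 4563, and removal of 1 library gave 3456 to 6169. With the replicate block 5060 genes were called and all calls of the 10 genes were the same. Libraries of the same number correlated in their deviations at 0.340 (replicate 1), 0.0723, -0.0272 and 0.123, and those of unlike number at -0.274 to 0.199. Only the value of replicate 1 lay above that range, so the numbers were not taken to pair libraries, although the study calls its controls matched. Whether the 2 libraries of replicate 1 shared a culture or batch was not tested. The comparison with sulforaphane and its alternatives were not run, because its columns share 1 name.

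With variably expressed genes only, 745 genes were called for respiratory chain inhibitors, 1069 for cluster 2 (C1qa and C1qc then missed, adjusted p = 0.0603 and 0.0515), 171 for cluster 3, 54 for cluster 4 and 1784 for topotecan; fewer genes were tested. At a threshold of 0.01, 145 genes were called for cluster 3 and 30 for cluster 4, and C1qa and C1qc of cluster 2 were lost. Against vehicle, single libraries gave 297 genes for cluster 3 (Cx3cr1 called, -0.83, adjusted p = 0.0371), and single libraries gave 62 for cluster 4. Removal of 1 chemical gave 120 to 434 genes for cluster 3 and 23 to 42 for cluster 4. Directions that turned were all of values not called. Csf1r turned for respiratory chain inhibitors against vehicle (0.10) and without pyridaben, rotenone or tebufenpyrad (range -0.10 to 0.052 on removal of 1 chemical), and in cluster 3 without tebupirimfos (-0.030 to 0.32). C1qc turned in cluster 4 without butafenacil (-0.20 to 0.019). C1qa (0.074) and Tlr13 (0.077) turned for topotecan against other chemicals. The cause was not tested. Of the 10 genes most like the 6, 3 were shared with Spearman correlation and 2 over chemicals. For Cx3cr1 and topotecan the difference stayed between -0.60 and -0.49 in 4 alternatives. Counts under about 10 per library limit Ctss, Fcer1g, Tyrobp, Trem2 and Tlr13 in vehicle.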

Other observations

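Beyond the respiratory chain inhibitors of complexes I and III, the chemicals at the ends of the ranking by the mean of the 6 genes had 1 library each. The highest was the fungicide carboxin (10 μM) at 1.09, an inhibitor of succinate dehydrogenase (complex II), with C1qb at 1.59, C1qa at 1.37, Tlr13 at 1.08, C1qc at 1.03, Csf1r at 0.93 and Cx3cr1 at 0.56. Piperonyl butoxide (10 μM), an inhibitor of cytochrome P450 that is added to insecticides, was at 3 with a mean of 0.89 and Tlr13 at 1.40, the highest value of that gene over all chemicals. The other complex II inhibitors of the screen, chosen after the values were seen, were boscalid (10 μM), at rank 28 with a mean of 0.46 and all 6 genes above the median of vehicle, and flutolanil (10 μM), at rank 258 with a mean of -0.33 and none above it. Over all 297 chemicals, 12 had all 6 genes above the median of vehicle and 18 had none.

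The lowest chemical was TCMTB (10 μM), a thiocyanate biocide, at -1.83, with C1qa at -3.68, C1qc at -2.74 and C1qb at -2.24 but Csf1r at -0.22. Methylene bis(thiocyanate) (1 μM), also a thiocyanate biocide, was next at -1.28, with C1qb at -3.42. Their doses differed, and neither had a second library. Above them were imazalil at -0.97, clothiandin (as spelled in the labels) at -0.92 and triflusulfuron at -0.85 (10 μM each). In triflusulfuron C1qb and C1qc were at -3.21 and -1.98 while C1qa was at -0.43 and Tlr13 at 0.85. The values of the 3 C1q genes thus differed in this 1 library. Depth of the screen is unknown, so the error of counting in these values cannot be judged. The means of 13 chemicals lay above the highest vehicle library (0.57) and those of 6 below the lowest (-0.76).

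Chemicals outside the groups above with 2 libraries also spread widely. The mean of the 6 genes was 1.13 and -0.13 in the libraries of chlorothalonil (1 μM), and 0.82 and 0.07 in those of thiram (10 μM).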
